A study of Homo sapiens with 12 samples.

Results

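The data compared SaOS-2, a human osteosarcoma cell line, with 2 stable CD99 transfectants derived from it after 14 days in osteogenic medium. Of the 12 arrays of the study, 4 belonged to this comparison, namely 1 array of each transfected clone, labelled Sa/CD99 wt22 and Sa/CD99 wt36, and 2 arrays of the SaOS-2 line at day 14. The other 8 arrays held the same clones and the same line at days 0 and 7, with 2 arrays of each line per day. The clones had been transfected with CD99 by the calcium phosphate method and selected in neomycin, whereas the SaOS-2 cells were neither transfected nor selected. CD99, transfection, selection and the isolation of single clones therefore cannot be told apart in the difference between the lines. The labels did not say whether the SaOS-2 arrays came from separate cultures, so the spread between these arrays may be technical. The p-values below rest on a spread pooled over the clone pairs and the SaOS-2 pairs of days 0, 7 and 14. The same 2 clones supply the clone pairs of each day, so these pairs are not independent. Total RNA was hybridised to Affymetrix HG-U133 Plus 2.0 arrays. A probe set is a group of short probes, for most sets against transcripts of 1 gene and for some against those of several genes. Each value is a log2 signal made by RMA, a method that corrects, normalises and summarises the probes. A probe set was tested when its signal on the linear scale exceeded 100, or 6.64 on the log2 scale, on at least 4 of the 12 arrays, which kept 18677 of 54613 probe sets and 9731 genes. Each gene was represented by its probe set with the highest mean over the 12 arrays. A probe set was called when limma's adjusted p was at most 0.05 and the difference at least 1.5-fold, and the agreement of both clones was then examined.

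CD99 is a heavily glycosylated membrane protein that takes part in cell adhesion, migration and death, and it is abundant on Ewing sarcoma cells and low on many osteosarcomas. Osteosarcoma is a bone-forming tumour whose cells resemble osteoblasts that did not complete their differentiation. In osteoblasts the transcription factors RUNX2 and SP7 direct the cell towards secretion of a collagen type I matrix, which alkaline phosphatase and acidic matrix proteins help to mineralise. Ascorbic acid and beta-glycerophosphate in the osteogenic medium serve collagen folding and supply phosphate for mineral.

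CD99 was represented by 2 probe sets, which differed. The probe set with the lower signal read 8.24 in wt22 and 8.88 in wt36, against 11.83 and 11.75 on the SaOS-2 arrays. Both clones lay below both SaOS-2 arrays, a log2 change of -3.23 (SE 0.43) or 9.4-fold lower, with a limma adjusted p of 0.0104. The probe set with the higher signal read 12.74 in wt22 and 12.67 in wt36, against 12.66 and 12.65 on the SaOS-2 arrays. Its log2 change was 0.05 (SE 0.07), with a limma adjusted p of 0.81. The first probe set went against the label, and the second showed no increase that passed the test. The first was also called lower at day 0 (log2 change -4.60, limma adjusted p = 0.00299) and at day 7 (log2 change -4.17, limma adjusted p = 0.00366). The second was called on neither of these days. The samples are therefore called the arrays labelled Sa/CD99. The call on the lower-signal probe set was lost without either SaOS-2 array, with log2 changes of -3.19 without replicate 1 (limma adjusted p = 0.13) and -3.27 without replicate 2 (limma adjusted p = 0.114). The sources used here do not give whether the transfected sequence holds the target of either probe set, and the real-time PCR of CD99 described by the study was not analysed here.

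The arrays of the SaOS-2 line were closer to each other than the clones were. The SD of the difference between the pair over the tested probe sets was 0.3644 for the clones and 0.1129 for the SaOS-2 arrays at day 14. Of the osteoblast markers, 6 (RUNX2, SP7, ALPL, COL1A1, IBSP and SPARC) were above the signal floor on all 4 arrays, SPP1, which encodes osteopontin, was below it on all 4, and BGLAP had no probe set of a single gene. Of the markers of chondrocytes, adipocytes, muscle, endothelium, blood, epithelium and neurons, SOX9, PPARG and EPCAM were above the floor on all 4 arrays, and the others measured were below it on all 4. In bulk RNA, fewer cells of a type and less RNA per cell cannot be told apart.

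At day 14 limma called 181 probe sets, or 0.969% of those tested, of which 18 were higher (0.0964%) and 163 lower (0.873%) on the arrays labelled Sa/CD99. By gene there were 108 calls (1.11%), 12 of them higher (0.123% of 9731) and 96 lower (0.987%). In the same limma fit 1574 of the 9731 genes had an unadjusted p under 0.05. These shares are the background for the list counts below. All 181 called probe sets had both clones on the same side of both SaOS-2 arrays. The call rule favours this, since a difference between the clones enlarges the SE, so it is not separate support for the calls. Such separation was common in this set of 4 arrays, since 27.4% of all genes were apart in the higher direction and 23.3% in the lower. Lower genes had a median log2 change of -0.86, with sizes between 0.59 and 4.55, and 38 of them passed 2-fold and 15 passed 4-fold. Higher genes changed less, with a median of 0.74, sizes between 0.61 and 1.27, and 3 genes past 2-fold. In 31 of the 96 lower genes both clones were under the signal floor, and in 4 of the 12 higher genes both SaOS-2 arrays were, so that such genes passed the floor through other arrays and their fold changes rest on signals close to background. Leaving out 1 of the 4 arrays leaves 1 array in a group, and calls were then lost in each case. The largest part was lost on leaving out a SaOS-2 array. Without wt22 or wt36 part of the calls was lost, and other probe sets were called instead. Of the 108 genes, only MGST1, TOX3, FLRT2, THY1, GJB2, NTNG1, SCUBE3 and GALNT1, lower, and NRTN, higher, kept their call with each of the 4 arrays left out in turn.

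**Figure D1:**
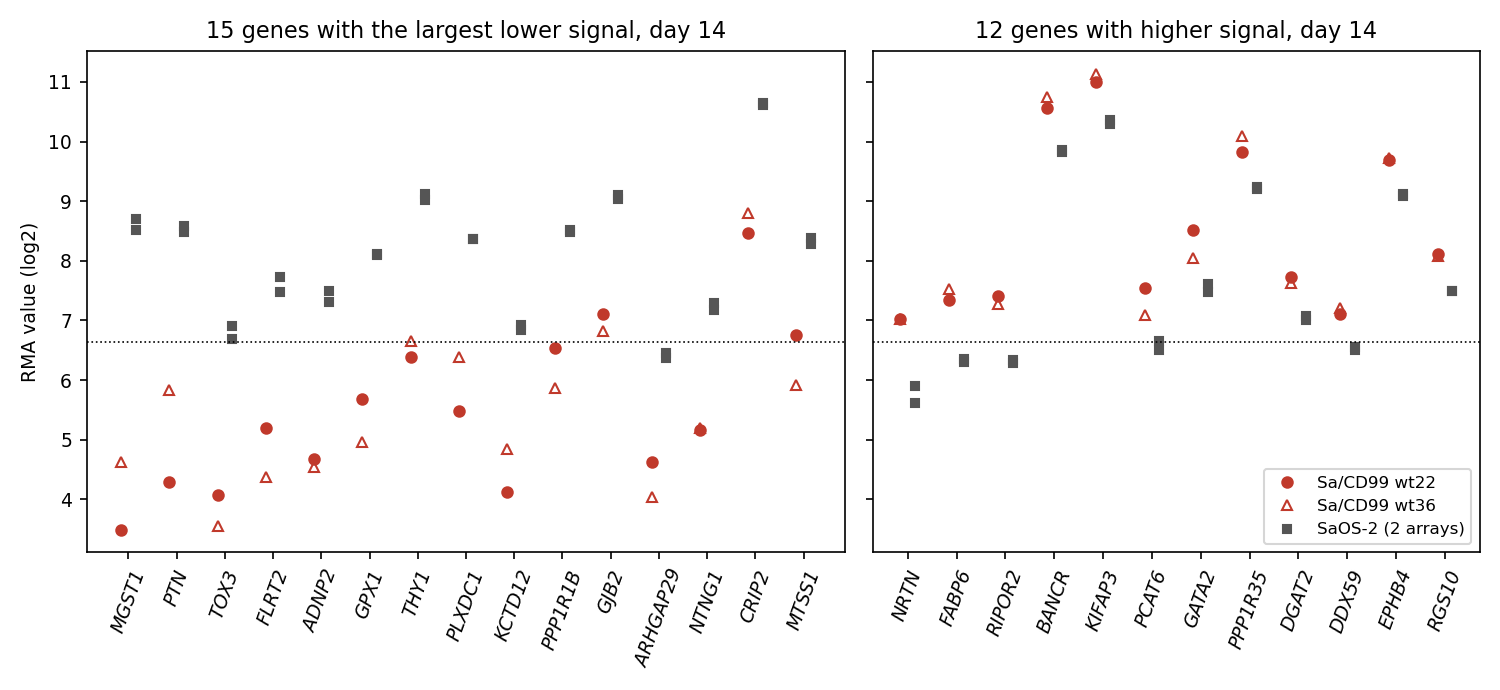
RMA values (log2, vertical axis) on the 4 arrays of day 14 for the 15 called genes with the largest decrease and the 12 genes called higher. The clones are red circles (wt22) and open triangles (wt36), left of the 2 SaOS-2 arrays as grey squares. The dotted line is the signal floor of 6.64, and in each of the 27 genes shown both clones lie on the same side of both SaOS-2 arrays.

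The largest difference belonged to MGST1, a membrane-bound glutathione transferase of the endoplasmic reticulum and mitochondria that detoxifies lipid peroxides. MGST1 read 3.49 in wt22 and 4.62 in wt36, against 8.70 and 8.51 on the SaOS-2 arrays. Both clones were under the floor and both SaOS-2 arrays well above it, a log2 change of -4.55 (SE 0.29) or 23.4-fold lower, with a limma adjusted p of 0.000346. A second MGST1 probe set read 4.02 in wt22 and 3.72 in wt36, against 8.16 and 8.18 on the SaOS-2 arrays, a log2 change of -4.30. GPX1, the cytosolic glutathione peroxidase that reduces hydrogen peroxide, was also lower. GPX1 read 5.68 in wt22 and 4.96 in wt36, against 8.10 and 8.12 on the SaOS-2 arrays, and the groups did not overlap. Its log2 change was -2.79 (SE 0.32), 6.91-fold lower, with a limma adjusted p of 0.00585.

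MGST1 and GPX1 were the 2 called genes among 37 measured glutathione and redox enzymes, both lower, and the median log2 change of this list was 0.03, close to the 0.02 of all genes tested. GPX3, the secreted glutathione peroxidase, read 5.37 in wt22 and 6.80 in wt36, against 8.53 and 8.37 on the SaOS-2 arrays, and with its log2 change of -2.36 (SE 0.92) it did not pass the test (limma adjusted p = 0.261). GSR, which regenerates reduced glutathione, read 8.94 in wt22 and 8.44 in wt36, against 7.95 and 8.01 on the SaOS-2 arrays, and it did not pass either (limma adjusted p = 0.23). MGST3, a relative of MGST1, read 12.64 and 12.65 in the clones, against 12.30 and 12.28 on the SaOS-2 arrays, and was likewise not called (limma adjusted p = 0.0686).

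Of the 15 measured genes in the list of cadherins and junction molecules, THY1, JAM2 and CDH2 were called, all lower. GJB2 and DSG2, described below and also called lower, are not in this list. THY1, a glycolipid-anchored protein that marks mesenchymal stromal cells and fibroblasts, read 6.39 in wt22 and 6.65 in wt36, against 9.02 and 9.12 on the SaOS-2 arrays. The groups were separated by over 2 log2 units, a change of -2.55 (SE 0.17) or 5.86-fold lower, with a limma adjusted p of 0.000384. The other probe sets of THY1 were 16.8-fold and 7.18-fold lower (limma adjusted p = 7.72e-05 and 0.00129). JAM2, an adhesion molecule of tight junctions, read 4.31 and 5.00 in the clones, against 6.46 and 6.80 on the SaOS-2 arrays, a log2 change of -1.97 (limma adjusted p = 0.00545). CDH2, the N-cadherin of mesenchymal and osteoblast contacts, read 7.45 in wt22 and 6.86 in wt36, against 8.58 and 8.79 on the SaOS-2 arrays, a log2 change of -1.53 (limma adjusted p = 0.0148). A second CDH2 probe set, with a log2 change of -0.86, was not called (limma adjusted p = 0.0633). CDH2 lies on 18q, and 2 genes of the list were called without 14q and 18q. In 11 of the 15 genes both clones were below both SaOS-2 arrays, a separation found in 23.3% of all genes. The median log2 change of that list was -0.30, with -0.33 in wt22 and -0.24 in wt36. The protocadherin PCDH18 differed between the clones, at 7.42 in wt22 and 4.99 in wt36, against 7.59 and 7.61 on the SaOS-2 arrays, and was not called.

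GJB2, which encodes the gap junction protein connexin 26, read 7.11 in wt22 and 6.83 in wt36, against 9.10 and 9.03 on the SaOS-2 arrays. The clones were alike and both were lower, a log2 change of -2.10 (SE 0.14) or 4.28-fold, with a limma adjusted p of 0.000384. MTSS1, a protein that shapes the actin cytoskeleton at the membrane, read 6.75 in wt22 and 5.92 in wt36, against 8.28 and 8.39 on the SaOS-2 arrays, 4-fold lower (limma adjusted p = 0.036). CRIP2, a LIM domain protein, kept a clear signal in the clones. CRIP2 read 8.46 in wt22 and 8.80 in wt36, against 10.65 and 10.62 on the SaOS-2 arrays, 4.03-fold lower (limma adjusted p = 0.00355). KCTD12, an auxiliary subunit of GABA-B receptors, and PPP1R1B, an inhibitor of protein phosphatase 1 also known as DARPP-32, were 5.29-fold and 4.91-fold lower.

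Of 20 measured neurotrophic and heparin-binding growth factors and receptors 4 were called, and of 37 measured axon guidance genes 3, against 1.11% of all genes. PTN encodes pleiotrophin, a heparin-binding factor that promotes neurite outgrowth and is found in bone matrix. PTN read 4.29 in wt22 and 5.84 in wt36, against 8.58 and 8.49 on the SaOS-2 arrays, both clones being low, wt22 the lower by over 1 log2 unit. The log2 change of PTN was -3.47 (SE 0.39), 11.1-fold lower, with a limma adjusted p of 0.00565. Its other probe sets were 6.16-fold and 5.22-fold lower. FLRT2, a repulsive ligand of UNC5 receptors, read 5.20 in wt22 and 4.38 in wt36, against 7.73 and 7.48 on the SaOS-2 arrays, a log2 change of -2.82 (limma adjusted p = 0.00203). NTNG1 encodes netrin-G1, a membrane-anchored relative of the netrins. NTNG1 read 5.16 in wt22 and 5.19 in wt36, against 7.29 and 7.17 on the SaOS-2 arrays, a log2 change of -2.06 (limma adjusted p = 0.0021).

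NRTN went in the other direction. It encodes neurturin, a ligand of the RET receptor complex that keeps certain neurons alive, and was the called gene with the largest increase. Over all genes tested the highest log2 change was 1.29, in a gene that was not called. NRTN read 7.03 in wt22 and 7.03 in wt36, against 5.62 and 5.90 on the SaOS-2 arrays, so that the clones were above the floor and the SaOS-2 arrays below it. Its log2 change was 1.27 (SE 0.12), 2.41-fold higher, with a limma adjusted p of 0.00231. Among the neurotrophic and heparin-binding growth factors and receptors, NRTN was higher, and PTN, GPC6 and FGFR3 were lower. GPC6, a cell surface heparan sulfate proteoglycan, had a log2 change of -0.79, and FGFR3, a receptor of fibroblast growth factors that restrains growth of cartilage, had one of -0.77. The median of that list was -0.10, but 0.26 in wt22 and -0.27 in wt36. Of the axon guidance genes, EPHB4 was higher and FLRT2 and NTNG1 were lower, with a list median of -0.07. FLRT2 lies on 14q, and 1 lower gene was left without 14q and 18q.

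The stretch around the transcription start is shown for MGST1 and GJB2, lower, and for NRTN, higher. These 3 were picked by hand from the genes whose calls stayed with each of the 4 arrays left out. A motif that they share therefore says nothing about the called genes as a set. The sequences are RefSeq windows of 300 bases on GRCh38.p14, holding 250 bases before and 50 after the start, in the direction of the gene. Capitals mark GGGCGG (the GC box bound by SP1) and CAGGTG (the E-box bound by factors of the SNAI family), searched on both strands, so that CCGCCC and CACCTG are matches on the other strand. The windows lie at chr12:16347395-16347694 on the plus strand for MGST1, chr13:20192889-20193188 on the minus strand for GJB2 and chr19:5804817-5805116 on the plus strand for NRTN.
MGST1: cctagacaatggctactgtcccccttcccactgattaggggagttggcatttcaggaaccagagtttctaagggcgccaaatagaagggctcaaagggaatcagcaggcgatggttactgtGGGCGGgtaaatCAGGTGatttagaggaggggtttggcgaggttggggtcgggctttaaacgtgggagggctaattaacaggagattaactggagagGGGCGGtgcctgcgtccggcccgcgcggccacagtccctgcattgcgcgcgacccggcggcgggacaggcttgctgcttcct
GJB2: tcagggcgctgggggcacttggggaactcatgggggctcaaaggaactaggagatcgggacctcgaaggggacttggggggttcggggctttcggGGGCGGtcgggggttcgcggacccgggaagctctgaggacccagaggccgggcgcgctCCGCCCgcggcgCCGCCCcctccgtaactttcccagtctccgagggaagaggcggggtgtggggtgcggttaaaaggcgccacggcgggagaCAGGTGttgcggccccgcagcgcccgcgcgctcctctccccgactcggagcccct
NRTN: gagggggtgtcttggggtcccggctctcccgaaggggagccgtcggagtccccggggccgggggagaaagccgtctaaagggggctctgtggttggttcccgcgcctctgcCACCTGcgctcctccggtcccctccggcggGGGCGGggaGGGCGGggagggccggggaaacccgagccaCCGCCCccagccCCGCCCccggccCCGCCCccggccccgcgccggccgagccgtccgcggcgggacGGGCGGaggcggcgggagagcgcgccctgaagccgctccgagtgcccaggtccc
All 3 windows held CAGGTG once, and GGGCGG 2 times in MGST1, 3 times in GJB2 and 6 times in NRTN. A window was found for 8156 of the 9731 genes, including 76 of the 96 lower and 10 of the 12 higher genes. CAGGTG was in 22.4% of the windows of lower genes, 20% of those of higher genes and 16.5% of all, and GGGCGG in 67.1%, 80% and 72.2%. TATAAA, the TATA box, was in 5.26%, 10% and 5.08%, and TGACGTCA, the cAMP response element, in 2.63% of lower, 0% of higher and 3.59% of all windows. GTCTAGAC, the palindrome bound by SMAD proteins, was in 0 windows of called genes and in 0.123% of all. The median number of CpG pairs per window was 27 in each of the 3 sets. These matches describe letters only, and no binding was measured.

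Among genes of the bone matrix, SERPINH1 and MFAP2 were lower, and no collagen chain was called. SERPINH1, the chaperone HSP47 that folds procollagen in the endoplasmic reticulum, read 6.26 in wt22 and 6.25 in wt36, against 8.07 and 8.08 on the SaOS-2 arrays. The clones were at the same level, below the floor, a log2 change of -1.82 (SE 0.20) or 3.53-fold lower, with a limma adjusted p of 0.00529. It was the 1 gene called among 18 measured genes of collagen processing, whose median log2 change was 0.07. P4HA3, a subunit of the prolyl hydroxylase that stabilises the collagen helix, read 7.98 in wt22 and 8.27 in wt36, against 7.45 and 7.39 on the SaOS-2 arrays, and did not pass the test (limma adjusted p = 0.0879). MFAP2, a glycoprotein of elastic microfibrils, read 6.65 and 6.32 in the clones, against 7.96 and 7.92 on the SaOS-2 arrays, a log2 change of -1.46 (limma adjusted p = 0.00659).

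Among the 14 measured collagen chains limma called 0 in each direction, with 3 at an unadjusted p under 0.05, and 8 of the 14 had both clones below both SaOS-2 arrays, as had 23.3% of all genes. The median log2 change of the chains was -0.25, with -0.06 in wt22 and -0.52 in wt36. COL1A1, the main chain of collagen type I, read 13.14 in wt22 and 12.60 in wt36, against 12.97 and 13.17 on the SaOS-2 arrays, and the groups overlapped. COL11A1, a fibrillar chain of cartilage and of immature osteoblasts, read 10.03 in wt22 and 5.33 in wt36, against 11.61 and 11.59 on the SaOS-2 arrays. Both clones were lower for COL11A1, but they differed by over 4 log2 units, and the log2 change of -3.92 (SE 1.40) did not pass the test (limma adjusted p = 0.23). FN1, which encodes fibronectin, read 11.31 in wt22 and 11.13 in wt36, against 11.88 and 11.86 on the SaOS-2 arrays, a log2 change of -0.65 that missed the threshold (limma adjusted p = 0.0634).

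Of the 17 measured genes of osteoblast differentiation limma called 0 higher and 0 lower, with 5 at an unadjusted p under 0.05, and their median log2 change was 0.00, with 0.23 in wt22 and -0.16 in wt36. RUNX2 read 11.71 in wt22 and 11.82 in wt36, against 11.81 and 11.88 on the SaOS-2 arrays, with overlapping groups and a log2 change of -0.08 (SE 0.10, limma adjusted p = 0.744). SP7 read 8.41 and 7.85 in the clones, against 8.26 and 8.08 on the SaOS-2 arrays, and the clones lay on either side. ALPL, the alkaline phosphatase that frees phosphate for mineral, read 11.30 in wt22 and 11.77 in wt36, against 12.13 and 11.99 on the SaOS-2 arrays. Both clones were lower for ALPL, but its log2 change of -0.52 (SE 0.14) did not pass (limma adjusted p = 0.133). VDR, the vitamin D receptor, was the lowest of the list at 8.92 in wt22 and 8.82 in wt36, against 9.53 and 9.54 on the SaOS-2 arrays (log2 change -0.67, limma adjusted p = 0.0552). TNFRSF11B, the osteoclast inhibitor osteoprotegerin, was the highest at 8.77 and 8.88 in the clones, against 8.25 and 8.27 on the SaOS-2 arrays (log2 change 0.56, limma adjusted p = 0.16). IBSP, the bone sialoprotein, read 10.05 in wt22 and 8.12 in wt36, against 9.41 and 9.44 on the SaOS-2 arrays, with 1 clone above and 1 below. The call rule required 1.5-fold and the median SE over all probe sets was 0.12 on the log2 scale, so that smaller differences could not be called.

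In TGF-beta signalling, SMAD2 and SMAD4 were the called genes among 24 measured, both lower, and the median of the list was -0.07. In 12 of the 24 both clones were below both SaOS-2 arrays, and in 5 both were above. The shares of all genes were 23.3% and 27.4%. SMAD2 is a receptor-activated transducer, and SMAD4 the partner it shares with the BMP branch. SMAD2 read 8.72 in wt22 and 8.89 in wt36, against 9.61 and 9.63 on the SaOS-2 arrays, a log2 change of -0.82 (SE 0.09) or 1.76-fold lower (limma adjusted p = 0.0057). SMAD4 read 8.58 in wt22 and 8.61 in wt36, against 9.17 and 9.23 on the SaOS-2 arrays, a log2 change of -0.61 (SE 0.11), near the 1.5-fold limit (limma adjusted p = 0.0357). In both genes the clones were alike and below both SaOS-2 arrays. Of the list members that were not called, PMEPA1, SMAD7 and SKIL had log2 changes of -1.07, -0.78 and -0.65. LTBP1 and SMURF1, the highest of the list, had changes of 0.5 and 0.49. The target genes TGFBI and CCN2 were also not called. TGFBI, a matrix protein induced by TGF-beta, read 8.31 in wt22 and 7.04 in wt36, against 9.05 and 9.03 on the SaOS-2 arrays (limma adjusted p = 0.122), and CCN2, the connective tissue growth factor, read 9.69 in wt22 and 8.58 in wt36, against 9.99 and 9.79 (limma adjusted p = 0.295). SMAD2 and SMAD4 both lie on the long arm of chromosome 18, whose genes were lower as a group. In the full list 9 of 24 genes had an unadjusted p under 0.05 in limma, against 1574 of all 9731 genes. Of the 24 genes, 4 lie on 14q or 18q. Without these the list had 0 called genes, 6 genes at an unadjusted p under 0.05 in limma, and a median of -0.06.

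ID1, a target of BMP signalling that blocks differentiation by binding helix-loop-helix factors, read 7.01 in wt22 and 7.13 in wt36, against 7.83 and 7.93 on the SaOS-2 arrays. The groups did not overlap, and its log2 change of -0.81 (SE 0.11) was the 1 call among 19 genes of BMP signalling (limma adjusted p = 0.0122). In AKT and PI3 kinase signalling, AKT1 and PIK3C3 were lower among 24 measured genes, with a list median of -0.04. AKT1, a kinase that promotes survival and growth, read 9.51 in wt22 and 9.37 in wt36, against 10.22 and 10.17 on the SaOS-2 arrays, a log2 change of -0.76 (SE 0.10, limma adjusted p = 0.0118). PIK3C3, the class III kinase of autophagy and endosomes, had a log2 change of -0.80 (limma adjusted p = 0.009). In the full list 6 of 24 genes had an unadjusted p under 0.05 in limma. AKT1 lies on 14q and PIK3C3 on 18q, the 2 genes of the list on these arms. Without them limma called 0 genes of the list, with 4 at an unadjusted p under 0.05.

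Among transcription factors and markers of epithelial-mesenchymal transition, CDH2, SNAI1 and TCF4 were lower of 16 measured, with a list median of -0.23. SNAI1, a repressor of E-cadherin, read 7.64 in wt22 and 7.57 in wt36, against 8.21 and 8.30 on the SaOS-2 arrays, a log2 change of -0.65 (SE 0.10, limma adjusted p = 0.0176). CDH2 and TCF4 are on 18q, so that 1 called gene, SNAI1, was left without 14q and 18q. In Notch signalling 2 of 12 measured genes were lower, against 0.987% of all genes, and 1 without 14q and 18q. The ligand JAG2 read 9.81 in wt22 and 10.24 in wt36, against 11.16 and 11.13 on the SaOS-2 arrays, 2.17-fold lower (limma adjusted p = 0.00889), and the target gene HEY2 had a log2 change of -0.74. In Wnt signalling, CCN5 and WNT5A were lower of 22, and in the insulin-like growth factor system IGFBP5 was lower of 11 (log2 change -0.64). CCN5, a matricellular protein induced by Wnt, read 7.91 in wt22 and 7.58 in wt36, against 9.05 and 9.06 on the SaOS-2 arrays, a log2 change of -1.31 (limma adjusted p = 0.0236). WNT5A, a ligand of non-canonical Wnt signalling, read 7.28 and 7.23 in the clones, against 7.90 and 7.86 on the SaOS-2 arrays (log2 change -0.63).

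**Figure D2:**
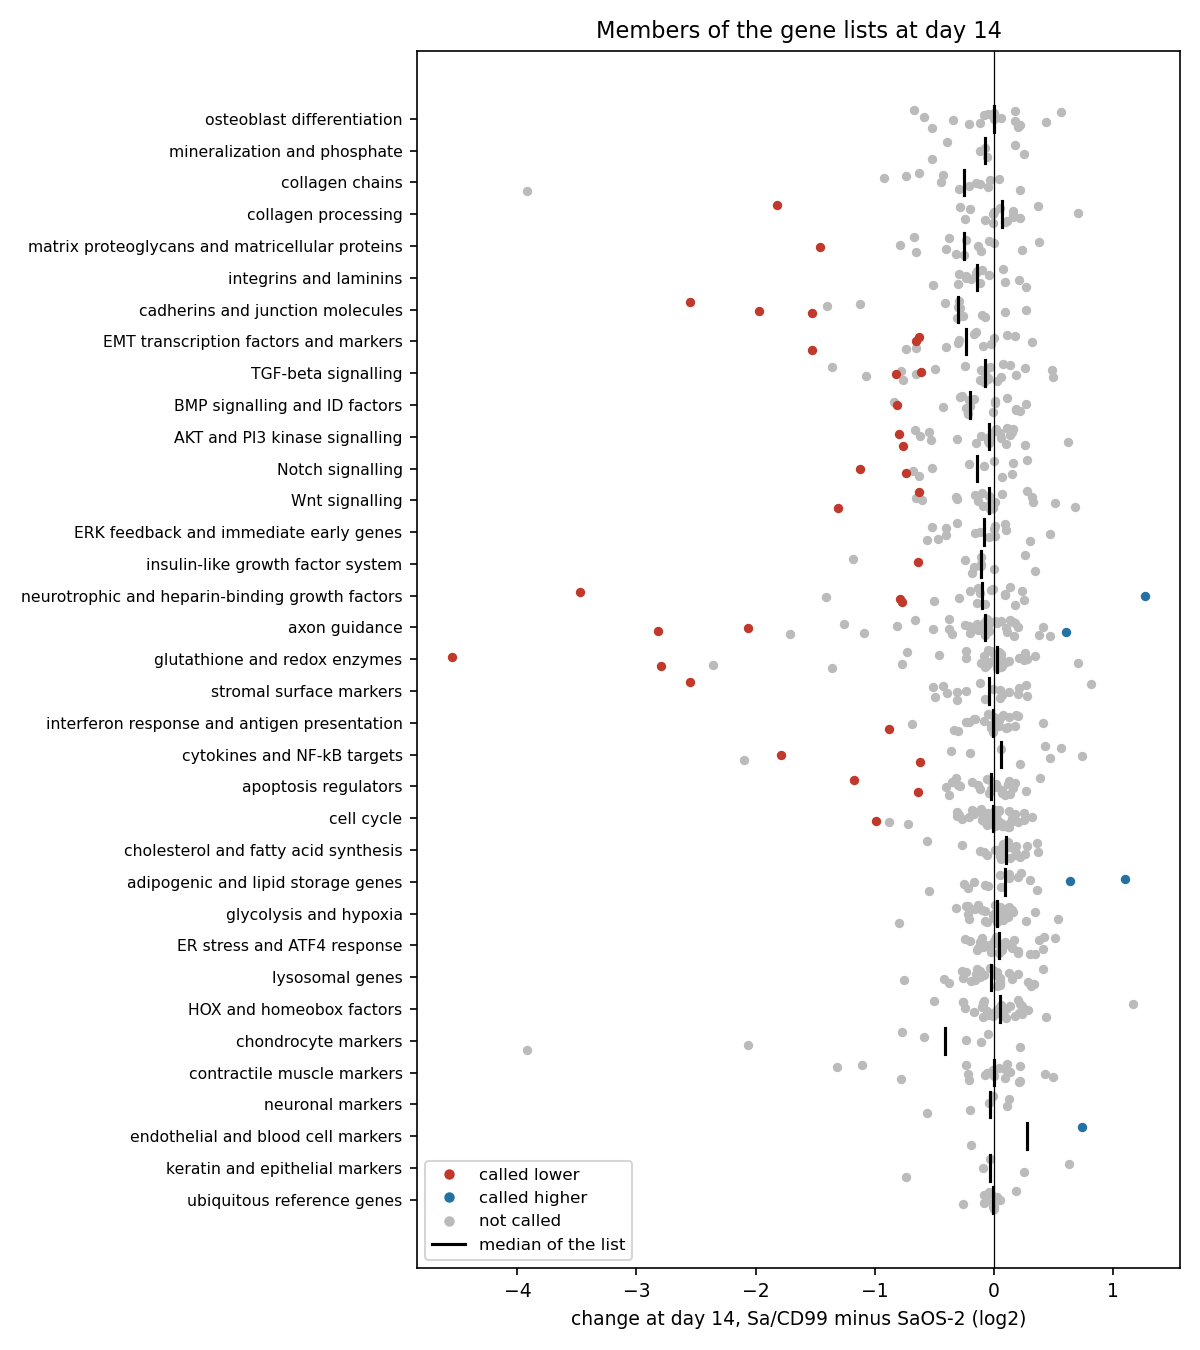
Log2 change at day 14 (horizontal axis, arrays labelled Sa/CD99 minus SaOS-2) of the measured members of 35 gene lists (vertical axis), with called lower genes in red, called higher genes in blue, genes not called in grey and the median of each list as a black bar. The medians lie between -0.41 (chondrocyte markers) and 0.28 (endothelial and blood cell markers, 2 genes measured), and no list holds more than 4 called genes.

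Among cytokines and NF-kB targets, LIF and CSF1 were lower. LIF, a cytokine of the interleukin-6 family that acts on bone cells, read 7.17 in wt22 and 6.47 in wt36, against 8.67 and 8.56 on the SaOS-2 arrays, 3.46-fold lower with no overlap (limma adjusted p = 0.0176). CSF1, the growth factor of macrophages and osteoclast precursors, had a log2 change of -0.62 (limma adjusted p = 0.0316). IL11, a relative of LIF, read 9.59 in wt22 and 7.69 in wt36, against 10.72 and 10.76 on the SaOS-2 arrays, with a log2 change of -2.10 that was not called (limma adjusted p = 0.0977). The remaining 8 of 11 measured cytokines and NF-kB targets were not called, and the median of the list was 0.06. The cell cycle inhibitor CDKN1C, or p57, read 7.29 in wt22 and 7.63 in wt36, against 8.43 and 8.46 on the SaOS-2 arrays, 1.99-fold lower (limma adjusted p = 0.033). It was the 1 called gene of 53 measured cell cycle genes, whose median log2 change was -0.01. PMAIP1, the BH3-only protein NOXA that promotes apoptosis, and BAG5, a co-chaperone of HSP70, were the 2 lower genes of 28 apoptosis regulators, with log2 changes of -1.17 and -0.64, and they lie on 18q and 14q. GBP3, a guanylate-binding protein induced by interferon, was the 1 lower gene of 27 interferon and antigen presentation genes, with a log2 change of -0.88.

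Of the largest decreases outside these lists, TOX3, a chromatin protein of the HMG box family, read 4.07 in wt22 and 3.55 in wt36, against 6.90 and 6.69 on the SaOS-2 arrays. Both clones were far below the floor, and the log2 change was -2.98 (SE 0.25, limma adjusted p = 0.00136). ADNP2, a homeobox protein encoded on 18q, read 4.67 in wt22 and 4.54 in wt36, against 7.49 and 7.31 on the SaOS-2 arrays, a log2 change of -2.80 (SE 0.28, limma adjusted p = 0.00289). PLXDC1, a membrane protein first described on tumour endothelium, read 5.48 in wt22 and 6.39 in wt36, against 8.36 and 8.36 on the SaOS-2 arrays, 5.39-fold lower (limma adjusted p = 0.01). Besides osteoblast differentiation, collagen chains and cholesterol and fatty acid synthesis, the lists with 0 called genes in limma were those of mineralization, integrins and laminins, ERK feedback, glycolysis and hypoxia, ER stress, lysosomes, homeobox factors, chondrocyte, muscle, neuronal and epithelial markers and ubiquitous reference genes. At an unadjusted p under 0.05, the highest count among the lists other than those 3 was 5, for ER stress (of 31 measured) and for homeobox factors (of 32), and the reference genes had 0 of 13, against 1574 of all 9731 genes.

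The 12 higher genes changed by up to 2.41-fold. FABP6, an intracellular carrier of bile acids, read 7.34 in wt22 and 7.52 in wt36, against 6.30 and 6.35 on the SaOS-2 arrays, a log2 change of 1.10 (limma adjusted p = 0.0174). RIPOR2 read 7.41 and 7.28 in the clones, against 6.33 and 6.29 on the SaOS-2 arrays, a log2 change of 1.04 (limma adjusted p = 0.00565). For both genes the SaOS-2 arrays were below the floor and the clones above it. GATA2, a transcription factor of blood progenitors and endothelium, read 8.51 in wt22 and 8.04 in wt36, against 7.47 and 7.61 on the SaOS-2 arrays (log2 change 0.74, limma adjusted p = 0.0426). All 9 markers of endothelium and blood cells were below the floor on these 4 arrays. KIFAP3, an adaptor of the kinesin-2 motor, read 10.99 in wt22 and 11.14 in wt36, against 10.36 and 10.29 on the SaOS-2 arrays (log2 change 0.74, limma adjusted p = 0.0111).

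EPHB4, the receptor of ephrin-B2 that favours bone formation, read 9.69 in wt22 and 9.73 in wt36, against 9.08 and 9.12 on the SaOS-2 arrays, 1.52-fold higher (limma adjusted p = 0.0316). DGAT2, which makes the triglycerides of lipid droplets, read 7.72 and 7.62 in the clones, against 7.07 and 7.00 on the SaOS-2 arrays, 1.55-fold higher (limma adjusted p = 0.0236). FABP6 and DGAT2 were the 2 called genes of 16 adipogenic and lipid storage genes, 10 of which had both clones above both SaOS-2 arrays, as had 27.4% of all genes, and the list median was 0.09. Of 25 genes of cholesterol and fatty acid synthesis 13 were apart in the same direction, but limma called 0, with 8 at an unadjusted p under 0.05, and their median was 0.10. The remaining higher genes were BANCR and PCAT6, both non-coding RNAs, PPP1R35, a centrosomal protein, RGS10, a regulator of G protein signalling, and DDX59, an RNA helicase, with log2 changes between 0.61 and 0.82. The 3 probe sets of DDX59 disagreed in sign, with changes between -0.16 and 0.62, and DDX59 was the 1 gene with such a disagreement among 43 called genes with several probe sets. Some called genes, among them CDH2, TCF4, SMAD2, EPHB4 and DGAT2, had a further probe set that was not called.

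The clones did not always agree. Both clones passed 1.5-fold in the same direction for 18 higher genes (0.185% of those tested) and 141 lower genes (1.45%), and they passed it in opposite directions for 36 genes (0.37%). Taken alone against the SaOS-2 mean, wt22 passed 1.5-fold for 229 higher (2.35%) and 515 lower genes (5.29%), and wt36 for 132 higher (1.36%) and 371 lower genes (3.81%). NLGN4X, a synaptic adhesion protein, differed most between the clones, at 4.44 in wt22 and 9.37 in wt36, against 6.36 and 6.15 on the SaOS-2 arrays. TPM2, a tropomyosin of actin filaments, read 12.15 in wt22 and 7.59 in wt36, against a mean of 10.98 on the SaOS-2 arrays. COL1A2, the second chain of collagen type I, read 13.35 in wt22 and 9.47 in wt36, against 11.55 and 11.51 on the SaOS-2 arrays. In each of these genes the SaOS-2 arrays lay between the clones, and the mean of the clones hid 2 opposite differences. The protease inhibitor A2M, with 8.05 in wt22 and 12.23 in wt36, and MYOCD, a coactivator of smooth muscle genes, with 6.21 and 9.25, were lower in wt22 and higher in wt36 than on the SaOS-2 arrays. The small heat shock protein HSPB1, with 10.85 in wt22 and 7.64 in wt36, and the death receptor TNFRSF10A, with 8.19 and 4.83, showed the opposite pattern. PGAP4, an enzyme of GPI anchor synthesis, read 5.45 in wt22 and 9.09 in wt36, against 8.01 and 8.07 on the SaOS-2 arrays. None of these 8 genes was called, which the call rule makes likely, since a wide difference between the clones enlarges the SE. Their SEs were between 0.96 and 1.82.

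**Figure D3:**
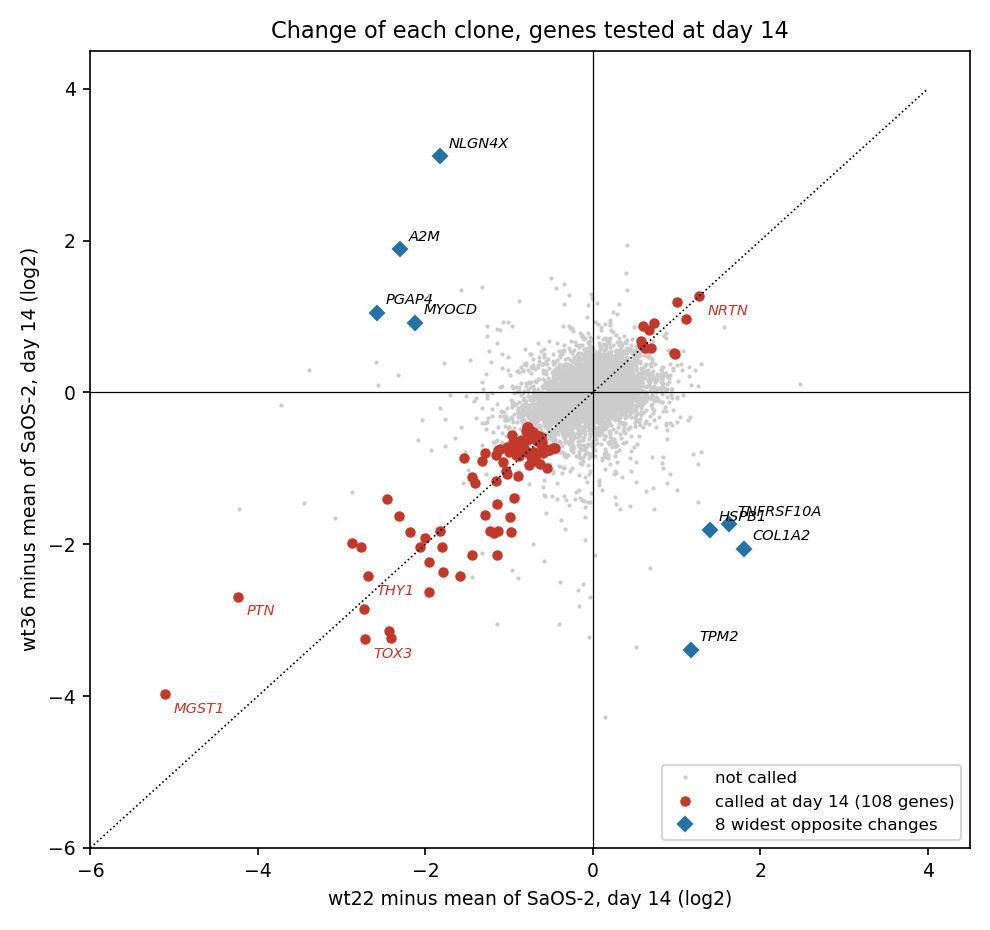
Change of wt22 (horizontal axis) and of wt36 (vertical axis) against the mean of the SaOS-2 arrays at day 14, in log2 units, for the genes tested. The 108 called genes (red) lie near the dotted line of equal change, which the call rule favours. The 8 genes with the widest opposite changes (blue), among them COL1A2 and TPM2, lie in the other quadrants.

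Called genes were not spread evenly over the genome. On the long arm of chromosome 18, 30 of 89 tested genes were lower, against 0.987% of all genes, and 0 were higher. On this arm 86.5% had both clones below both SaOS-2 arrays, against 23.3% of all genes. The median log2 change of the genes on 18q was -0.55, with -0.62 in wt22 and -0.55 in wt36, against 0.02 for all genes. On 14q, 10 of 331 genes were lower (3.02%, against 0.987% of all genes), 54.4% were apart in that direction and the median was -0.14. The share of lower genes was higher on 21q, with 4 of 100. There 28% of genes were apart in that direction and the median was -0.04. Together 14q and 18q held 40 of the 96 lower genes, and 11 of the 38 lower genes past 2-fold. The lower genes of 18q included GALNT1, which starts mucin-type glycosylation, with 8.23 in wt22 and 8.45 in wt36, against 9.67 and 9.62 on the SaOS-2 arrays (log2 change -1.30, limma adjusted p = 0.00101). DSG2, a desmosomal cadherin of 18q, read 7.80 and 8.12 in the clones, against 9.20 and 9.27 on the SaOS-2 arrays (log2 change -1.28, limma adjusted p = 0.0181). NEDD4L, a ubiquitin ligase of the same arm that targets ion channels and activated SMADs, was 2-fold lower. GALNT1, DSG2 and NEDD4L were picked as examples after their values were seen.

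Genes of 1q leaned the other way, with 3 of 427 called higher (KIFAP3, PCAT6 and DDX59), against 0.123% of all genes. On 1q 63.2% were apart in the higher direction, against 27.4% of all genes, and the median was 0.20. Other arms were shifted in 1 clone. The median change of 8p was 0.68 in wt22 and -0.05 in wt36, that of 9p was 0.29 and -0.02, that of 6p was 0.19 and -0.07, and that of 20p was -0.08 in wt22 and 0.27 in wt36. Called genes outside 14q and 18q numbered 12 higher and 56 lower, among them MGST1, PTN, THY1, GPX1 and SERPINH1. The arrays measured RNA, and the DNA of these arms was not analysed here.

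**Figure D4:**
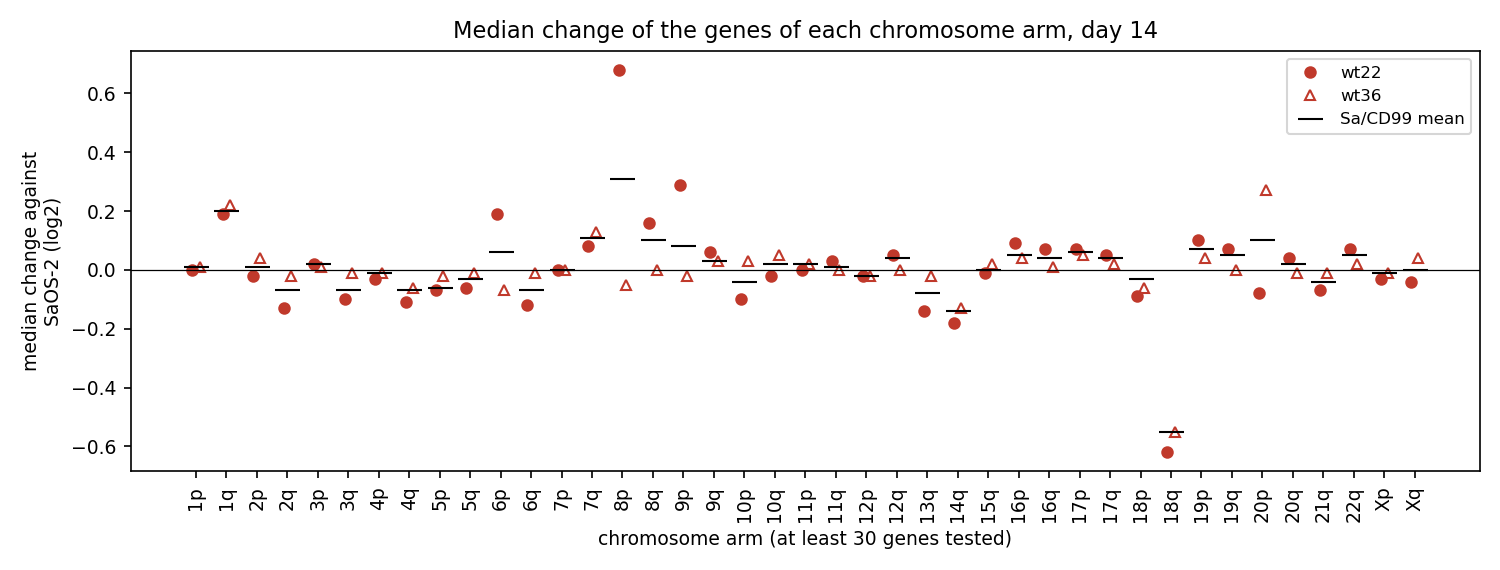
Median log2 change against SaOS-2 at day 14 (vertical axis) of the genes of each of 41 chromosome arms with at least 30 tested genes (horizontal axis), for wt22 (filled circles), wt36 (open triangles) and the mean of the clones (bars). Both clones lie lowest at 18q, with -0.62 and -0.55, and wt22 alone stands out at 8p with 0.68.

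The differences of day 14 were set beside those of the earlier days, in the same clones and line. Of the 96 lower genes of day 14, 43 were also called lower at day 0 (44.8% of day 14 and 68.3% of the 63 of day 0, where 0.647% of genes were called lower), and 57 at day 7 (59.4% of day 14 and 67.1% of the 85 of day 7, where 0.873% were called lower). Of the 12 higher genes, 1 was called higher at day 0, where 0.0925% of genes were, and 8 at day 7 (66.7% of day 14 and 21.6% of the 37 of day 7, or 0.38% of genes). On all 3 days 33 genes were lower and 1 gene, NRTN, was higher, and 29 lower and 4 higher genes (EPHB4, DDX59, KIFAP3 and PCAT6) were called at day 14 alone. A call at 1 day and not at another does not show that the days differ. The test of that difference, the interaction of line and day, called 2 probe sets between day 14 and day 0 (0.0107% of those tested) and 0 between day 14 and day 7, with 692 and 680 probe sets at an unadjusted p of at most 0.05 in the same limma fits.

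The interaction calls were the lower-signal probe sets of PLXDC1 and MGST1. That of PLXDC1 read 5.31 in wt22 and 5.41 in wt36 at day 14, against 7.42 and 7.17 on the SaOS-2 arrays, and 4.88 and 5.03 in the clones at day 0, against 4.74 and 5.00 on the SaOS-2 arrays. All these values but those of the SaOS-2 arrays at day 14 were under the signal floor, so that the overlap at day 0 is one of signals near background. The interaction was -2.01 (SE 0.17, limma adjusted p = 0.0185). The MGST1 probe set read 4.23 and 4.25 in the clones at day 0, against 7.00 and 6.94 on the SaOS-2 arrays, and its interaction was -1.58 (SE 0.16, limma adjusted p = 0.0286). The clones were under the floor on both days for MGST1, and its SaOS-2 arrays were higher at day 14 than at day 0. Both calls were lost with days 0 and 14 alone, with a mean-variance trend, with treat against 1.5-fold and on leaving out any single SaOS-2 array or either Sa/CD99 array of day 0, each giving 0 calls. The other probe set of each gene, the one with the higher signal, was not called in this test. SERPINH1 had changes of -0.66 at day 0, -1.25 at day 7 and -1.82 at day 14, and it was not called for the interaction. The differences of TOX3 at days 0, 7 and 14 were -2.90, -3.03 and -2.98. Those of ADNP2 were -2.73, -2.78 and -2.80 on the probe set with the higher signal and -3.47, -2.70 and -2.60 on its other probe set, whose interaction of 0.87 (SE 0.26) between days 14 and 0 was not called.

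**Figure D5:**
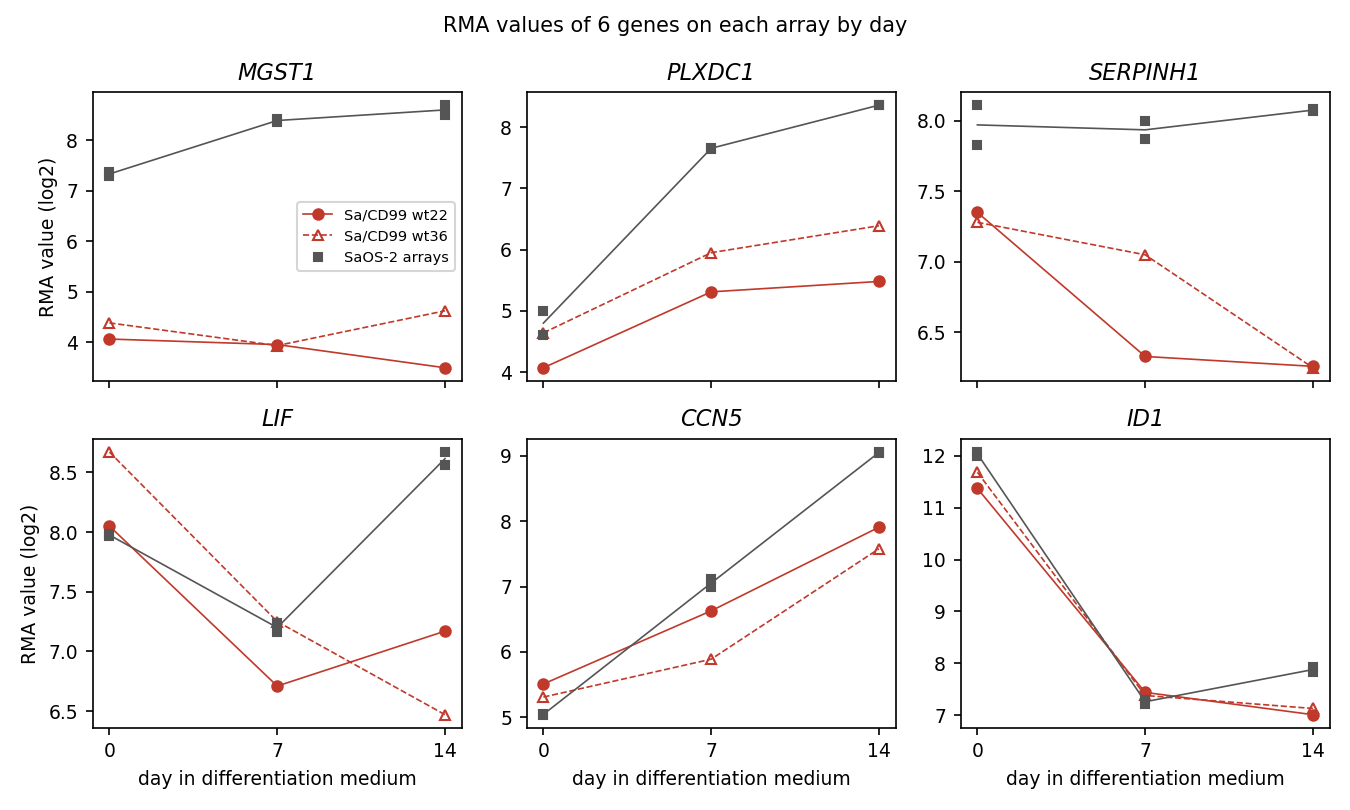
RMA values (log2, vertical axes) by day in osteogenic medium (horizontal axes) for 6 genes, with wt22 as red circles, wt36 as open red triangles and the 2 SaOS-2 arrays of each day as grey squares, lines joining each clone and the SaOS-2 mean. Both clones lie below both SaOS-2 arrays at day 14 in all 6 genes, and above both at day 0 in LIF and, with all 4 arrays under the signal floor, in CCN5, and at day 7 in ID1.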

How the data were processed

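The deposited values are log2 signals of probe sets, computed by the authors from HG-U133 Plus 2.0 arrays with RMA. The submitters' processing notes list RMA and affy, and no version of either was found in the sources used here. RMA corrects background, quantile-normalises all arrays together and summarises probes, so that array totals are equalised and low signals are compressed. The table held 54675 probe sets, of which 62 controls were left out, for 12 arrays whose medians lay between 5.25 and 5.31. Array data carry no read depth, and the number of arrays limits the precision. Probe sets were named through GEO's platform annotation with symbols updated by gene ID (41037 of 41091 probe sets of 1 gene), and those with several genes (829 tested) or none (1321) represent no gene. Chromosome arms were set from RefSeq positions and rounded centromere positions from general knowledge.

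limma 3.58.1 in R 4.3.3 fitted a mean per line and day to all 12 arrays, with 6 residual and 3.02 prior degrees of freedom, and took the contrast of day 14 and its interactions with days 0 and 7, with Benjamini-Hochberg adjustment over 18677 probe sets. The methods' interquartile range filter was an alternative, as were other floors, scalings, subsets of arrays and spread models. In simulated data for the day 14 contrast on 18677 probe sets, 22 of 50 changed 1.5-fold, 47 of 50 changed 2-fold, 49 of 50 changed 4-fold and 50 of 50 changed 8-fold were called, and 11 of the 179 calls were unchanged probe sets. The simulation gave all 12 arrays the same independent spread per probe set. In the data the clones differed more than the SaOS-2 arrays, and their differences were correlated between days. The simulated rates therefore do not carry over to these data. Named genes were the called genes with the 15 largest changes in each direction, up to 4 called members per list, the 8 genes with the widest clone disagreement and fixed marker and pathway genes; list members that were not called, and the examples on chromosome 18, were picked after their values were seen. The members and lists were chosen with earlier results of these data known. Of a list of genes named by the study, and so chosen on these samples, 10 of 20 were lower and 0 higher, with a median log2 change of -0.65. The clone number pairs the arrays of a clone across days, as the labels give the same transfected line: differences between the clones correlated at 0.5452 (days 0 and 7), 0.3058 (days 0 and 14) and 0.6118 (days 7 and 14), and those between the SaOS-2 replicates at -0.03305, 0.2332 and -0.03533. Of the osteoblast markers, 1 gene is not reported here.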

Additional observations from a re-analysis of the deposited data

Results flagged for a closer look

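The interaction of line and day between day 0 and day 14 was called for 2 probe sets, whose clone values were under the signal floor on both days, and both calls were lost with any SaOS-2 array left out. The lower-signal probe set of PLXDC1 had an interaction of -2.01 (SE 0.17, limma adjusted p = 0.0185), and that of MGST1 one of -1.58 (SE 0.16, limma adjusted p = 0.0286). For 3 genes named here both clones lay below both SaOS-2 arrays at day 14 and above both on an earlier day. Separation of the 4 arrays was common, with 23.3% of all genes apart in the lower direction at day 14. The share of all genes that change sides between days was not computed. ID1 had a log2 change of -0.81 at day 14 and of 0.15 at day 7, CCN5 of -1.31 at day 14 and of 0.36 at day 0, and LIF of -1.79 at day 14 and of 0.39 at day 0. The values of CCN5 at day 0 were all under the signal floor, so that their order is one of signals near background. The test of these differences between days did not pass in limma, with interactions of -0.96 (SE 0.16, adjusted p = 1), -1.67 (SE 0.29, adjusted p = 0.511) and -2.18 (SE 0.38, adjusted p = 0.511).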

How the results depend on the processing

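With 1 array per clone and day, the spread came from all 6 groups, and calls near 1.5-fold depended on it. The 181 calls became 6 with the day 14 arrays alone, 91 with days 0 and 14, 20 with limma's treat against 1.5-fold and, as an alternative chosen after seeing the data, 116 without genes on 14q and 18q, and between 19 and 317 with each array left out. Other floors, scalings, a mean-variance trend and separate spreads gave counts within 1.5 times, but not always the same probe sets. Of the 181, 139 stayed called with no signal floor, 140 with quantile normalisation and 176 with arrays centred on their median. The 2 calls of the interaction with day 0 became 4 with no signal floor, 1 with quantile normalisation or separate spreads, 0 with days 0 and 14, a mean-variance trend or treat, and 0 to 5 with an array left out; the 0 calls with day 7 became 1 with no signal floor. The lower-signal CD99 probe set kept its change of -3.23 but lost its call with day 14 alone (adjusted p = 0.0821) and treat (adjusted p = 0.0656), and left-out arrays gave -3.55 to -2.91. The mean over both CD99 probe sets reversed the sign of the gene's change to -1.59 (adjusted p = 0.0144). The 51 named called genes kept their direction under every alternative run, and 2 of them, NTNG1 and THY1, stayed past the threshold under each. No paired analysis was possible because the clones (22 and 36) and the SaOS-2 replicates (1 and 2) share no numbers, for the difference between the lines within a day. For the interactions the clone pairs arrays across days, and with clone and SaOS-2 replicate as a random block (correlation 0.181) 2 probe sets were called against day 0, 0 against day 7 and 167 at day 14. The cause of these changes was not tested.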
